A study of Saccharomyces cerevisiae with 8 samples.

Results

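The genes described here encode the nuclear subunits of the mitochondrial respiratory chain and of ATP synthase in the budding yeast Saccharomyces cerevisiae. The members were a fixed list of 37 gene symbols, chosen by function with earlier results of these data known. Of these, 35 had spots on the arrays, 2 spots each, out of 5539 genes in all: 4 genes of complex II, 9 of complex III, 2 of cytochrome c, 9 of complex IV and 11 of ATP synthase. ATP18 and ATP19, small subunits of ATP synthase, had no spot under those symbols in the table used here. They were not analysed.

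Each of 8 spotted arrays paired RNA of a strain fed 10 mM glycine in minimal medium (channel 1) with RNA of that strain in the same medium without glycine (channel 2). Cultures were at steady state to early log phase, and the strains came from the yeast deletion collection, whose parent is BY4741. There were 2 arrays of BY4741 (replicates 1 and 3), 2 of a bas1 deletion and 2 of a bas2 deletion (replicates 1 and 2), and 1 each of a gcn4 and an shm2 deletion. BAS1 and BAS2 (PHO2) encode transcription factors of purine genes, GCN4 encodes an activator of amino acid genes, and SHM2 encodes a cytosolic enzyme that interconverts serine and glycine. All groups share the background of BY4741, a haploid that lacks HIS3, LEU2, MET15 and URA3, and each mutant is 1 deletion strain.

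The respiratory chain moves electrons through protein complexes of the inner mitochondrial membrane to oxygen, and ATP synthase uses the proton gradient that this builds to make ATP. In yeast, succinate dehydrogenase (complex II) and dehydrogenases outside the complexes feed electrons into ubiquinone, the cytochrome bc1 complex (complex III) passes them to cytochrome c, and cytochrome c oxidase (complex IV) gives them to oxygen. Glucose represses most of the nuclear subunit genes, and the Hap2/3/4/5 activator raises many of them when cells respire.

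Every value below is a log2 channel ratio as deposited, averaged over the spots of a gene, with the median over genes of its array subtracted. A value below 0 therefore stands below the middle gene of that array. The direction of the ratio is not given in the sources used here. A negative value likely means more transcript with glycine, because GCV1, a glycine cleavage gene known to be induced by glycine, was below 0 on the 6 arrays that gave it a value, from -6.27 on BY4741 replicate 1 to -0.20 on shm2. That basis does not settle it: over all spots, BY4741 replicate 1 and bas1 replicate 1 correlated at r = -0.30, so results on these arrays are also given with the sign turned. Other pairs lay on either side: BY4741 replicate 1 correlated at 0.42 with replicate 3, 0.62 with gcn4 and -0.24 with bas1 replicate 2. For bas1 replicate 1 it was 0.22 with BY4741 replicate 3, 0.58 with bas2 replicate 1 and -0.11 with gcn4. Other genes looked at for direction did not all keep one side. GCV3 was below 0 on every array that gave it a value, from -3.56 on bas2 replicate 2 to -0.01 on shm2. SER3 was above 0 on every array, from 0.29 on shm2 to 2.03 on BY4741 replicate 1. On bas1 replicates 1 and 2, GCV2 was at 0.78 and -0.10 and SHM2 at 1.41 and 0.79. Both were below 0 on every array of the other strains. Which arrays, if any, are turned was not tested. For bas2 replicate 1, the title and description say bas2 but the source name says BY4741, and the title of BY4741 replicate 3 also holds the gene name zap1. As both channels of an array came from 1 strain, the ratio at the spot of a deleted gene checks no label. GCN4 had no value on the gcn4 array and had one on every other array. BAS1, BAS2 and SHM2 had values on the arrays of their own deletions. Spots without a value ran from 45 to 5465 of 12800 per array, with the most on bas1 replicate 2, which also had the largest SD over genes (2.07, against 0.379 on BY4741 replicate 3).

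The members stood mostly below the middle gene in bas1, bas2 and shm2 and mostly above it in gcn4, and the 2 BY4741 arrays lay on opposite sides of it. The median over members was 0.34 on BY4741 replicate 1 and -0.37 on replicate 3. It was -1.12 and -0.97 on bas1 replicates 1 and 2, and -0.98 and -0.50 on bas2 replicates 1 and 2. On the single gcn4 array it was 0.65, and on the single shm2 array -0.55. Only replicate 1 of BY4741 and the gcn4 array had a positive member median. RNA came from whole cultures, so a change in a few cells and a change in every cell cannot be told apart. With both bas1 arrays turned in sign, the median of the bas1 means would be 0.87 in place of -0.87.

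**Figure D1:**
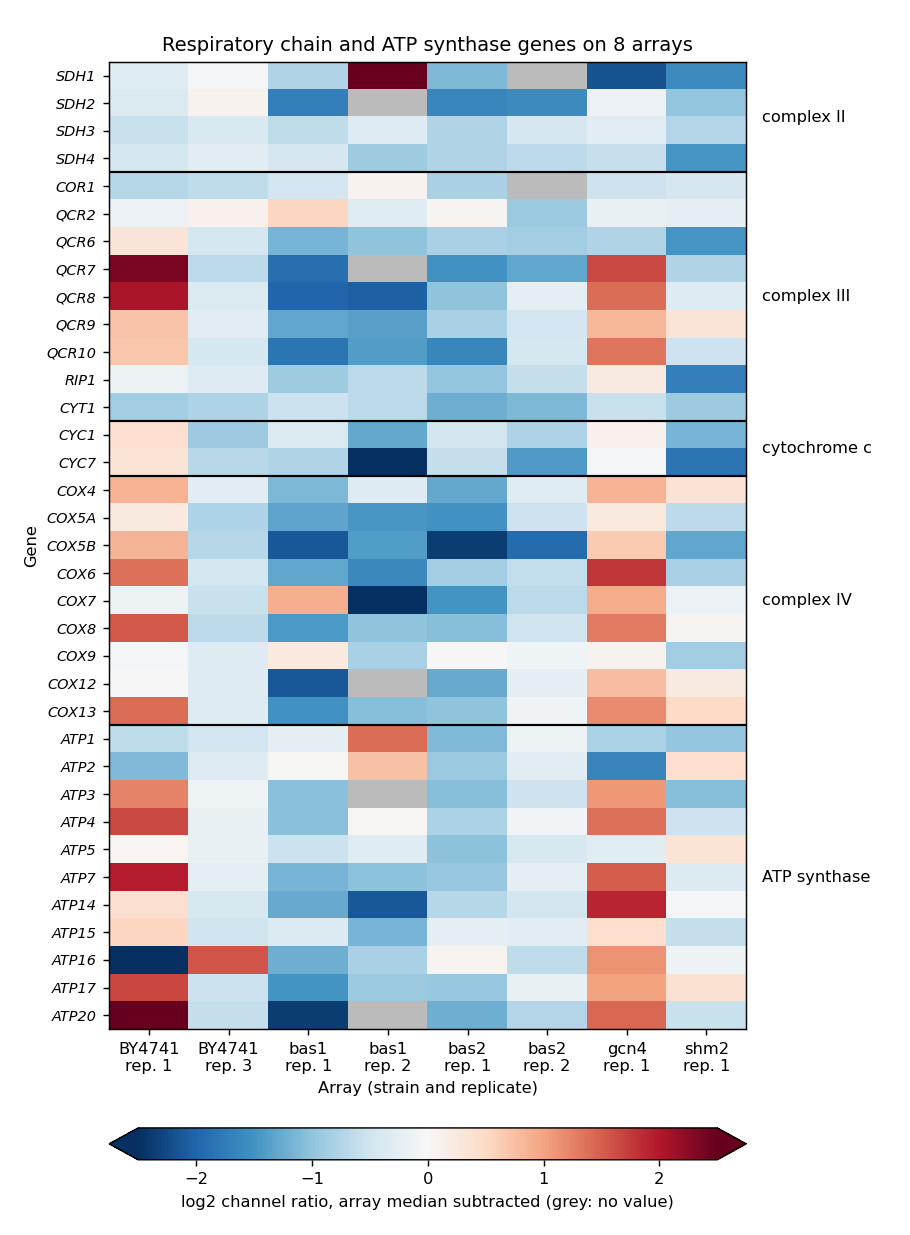
Log2 channel ratio, with the array median subtracted, of 35 respiratory chain and ATP synthase genes (rows, grouped by complex) on 8 arrays (columns); blue is below the middle gene, red above, grey has no value, and colours stop at 2.5 in either direction. Blue fills most of the bas1, bas2 and shm2 columns, where the member medians lie between -1.12 and -0.50, and red most of the complex IV and ATP synthase blocks of BY4741 replicate 1 and gcn4.

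Counted gene by gene, 22 of the 30 members with a value on both bas1 arrays were below the middle gene on both, where 25.3% of all genes with such values were. In bas2 it was 30 of 33 members, beside 29.1% of genes. In BY4741 it was 11 of 35 members beside 32.2% of genes, a share near the background, and without replicate 1 the count was 32 of 35. No member was above the middle gene on both BY4741 arrays (32.1% of genes were) or on both bas2 arrays (31.4%), and 1 of 30 was on both bas1 arrays (35.7%). On the shm2 array 27 of 35 members were below, and on the gcn4 array 23 of 35 were above, each beside 50% of genes by construction. With the bas1 arrays turned in sign, 1 of 30 members would be below on both.

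Values at -1 or lower on both arrays of a strain were found for 11 of 30 members in bas1 (3.25% of genes), 4 of 33 in bas2 (1.33%) and 0 of 35 in BY4741 (0.708%). The 11 in bas1 were QCR6, QCR8, QCR9, QCR10, COX5A, COX5B, COX6, COX8, COX13, ATP7 and ATP14. The 4 in bas2 were SDH2, QCR7, CYT1 and COX5B. With the bas1 arrays turned in sign, the 11 would be at 1 or higher and 0 members at -1 or lower. COX5B was in both sets, and it was also the lowest member on both bas2 arrays. Values at 1 or higher on both arrays were found for no member of these strains, beside 3.69% of genes in bas1, 1.23% in bas2 and 0.363% in BY4741. On the single shm2 array 8 of 35 members were at -1 or lower (7.62% of genes) and 0 at 1 or higher (5.72%), and on gcn4 2 were at -1 or lower (16.4%) and 13 at 1 or higher (13.2%).

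No member passed limma's moderated test at an adjusted p of 0.05 in any strain, and neither did any other gene, so every statement on sides and sizes here is a description. The smallest adjusted p of a member in each strain was 0.849 in BY4741, 0.268 in bas1 (ATP14), 0.722 in bas2 (COX5B and SDH2), 0.423 in gcn4 (ATP14) and 0.796 in shm2 (RIP1). At an unadjusted p under 0.05, limma marked 11 of 30 members in bas1, all of them below the middle gene, beside 16.9% of genes. It marked 6 of 33 in bas2, all below, beside 5.55% of genes. It marked 1 of 35 in BY4741 (3.37% of genes), 3 of 35 in gcn4 (11.5%) and 3 of 35 in shm2 (4.72%). The labels do not say that replicates came from separate cultures, so these p-values measure the spread between these arrays. The gcn4 and shm2 arrays have no replicate, and their test assumes that they vary like the replicated strains. The fit also gives each gene the same spread in every strain, bas1 included. Yet the SD over genes was 2.07 on bas1 replicate 2 and 0.379 on BY4741 replicate 3.

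Complex II, succinate dehydrogenase, oxidises succinate in the citric acid cycle and hands the electrons to ubiquinone. Its 4 genes had the steadiest sides: the median over them was below 0 on all 8 arrays, from -1.22 on shm2 to -0.16 on BY4741 replicate 3. SDH3 (YKL141W), a membrane anchor subunit, was at -0.56 and -0.37 in BY4741, -0.64 and -0.33 in bas1, -0.76 and -0.42 in bas2, -0.27 in gcn4 and -0.73 in shm2. It was below the middle gene on every array, with strain means between -0.73 and -0.27. SDH4 (YDR178W), the other anchor subunit, was also below 0 on every array, from -1.47 on shm2 to -0.27 on BY4741 replicate 3.

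SDH2 (YLL041C), the iron-sulfur subunit, was at -0.36 and 0.09 in BY4741, -1.70 on bas1 replicate 1 with no value on replicate 2, -1.64 and -1.58 in bas2, -0.15 in gcn4 and -0.98 in shm2. Its bas2 arrays lay below those of BY4741 and closer together than that pair, with a mean of -1.61 ± 0.04 (SD, n = 2) against -0.13 ± 0.32 in BY4741. In limma's fit that mean had a standard error of 0.30 and an adjusted p of 0.722. The value on bas2 replicate 2 came from 1 spot, and the spots on bas2 replicate 1 were at -1.77 and -1.51. SDH1 (YKL148C), the flavoprotein subunit, ran from -2.18 on gcn4 to 4.07 on bas1 replicate 2. That highest value rested on spots at 3.24 and 4.91, while the other bas1 array gave -0.75, and SDH1 had no value on bas2 replicate 2.

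Complex III takes electrons from reduced ubiquinone and passes them to cytochrome c. Of its 8 genes with values on both arrays, 6 were below the middle gene on both bas1 arrays (25.3% of all genes) and 7 on both bas2 arrays (29.1%). In BY4741 3 of 9 were below on both arrays, near the 32.2% of all genes. On gcn4 4 of 9 were below and 5 above, and on shm2 8 of 9 were below. CYT1 (YOR065W), cytochrome c1, was at -0.87 and -0.78 in BY4741, -0.54 and -0.68 in bas1, -1.22 and -1.13 in bas2, -0.56 in gcn4 and -0.92 in shm2. It was below 0 on every array, and its bas2 values were the lowest, with a mean of -1.17 ± 0.06 (SD, n = 2) and an adjusted p of 0.736 in limma's fit.

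CYT1, SDH3 and SDH4 were the 3 members, out of 28 with a value on all 8 arrays, that stood below the middle gene on every one of them. Among all genes measured on 8 arrays, 69 of 3168 did so, or 2.18%.

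QCR6 (YFR033C), the acidic subunit that binds near cytochrome c1, was at 0.33 and -0.44 in BY4741, -1.16 and -1.01 in bas1, -0.81 and -0.87 in bas2, -0.75 in gcn4 and -1.47 in shm2. The 6 arrays of the mutants all lay below both BY4741 arrays. QCR6 was the lowest member of the complex by the mean of the strain means (-0.84), and RIP1 (YEL024W), the Rieske iron-sulfur protein, was lower on shm2 at -1.71. RIP1 had there the smallest adjusted p of the members, 0.796, with a standard error of 0.39.

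The small subunits QCR7, QCR8, QCR9 and QCR10 made the widest swings within complex III. QCR8 (YJL166W), which lies close to the ubiquinone sites, was at 2.05 and -0.37 in BY4741, -1.98 and -2.04 in bas1, -1.01 and -0.24 in bas2, 1.39 in gcn4 and -0.32 in shm2. The bas1 arrays lay below all others, with an SD of 0.05 between them (n = 2), whereas the SD between the BY4741 arrays was 1.71. QCR7 (YDR529C), a neighbouring subunit, was at 2.36 and -0.65 in BY4741, -1.89 on bas1 replicate 1, -1.50 and -1.31 in bas2, 1.65 in gcn4 and -0.74 in shm2.

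QCR7 was above 0 only on BY4741 replicate 1 and gcn4, as was QCR8. QCR9 (YGR183C) was at 0.71 and -0.28 in BY4741, -1.30 and -1.37 in bas1, -0.81 and -0.47 in bas2, 0.82 in gcn4 and 0.32 in shm2. QCR10 (YHR001W-A) was at 0.68 and -0.44 in BY4741, -1.83 and -1.40 in bas1, -1.63 and -0.45 in bas2, 1.35 in gcn4 and -0.53 in shm2. The bas1 arrays of both genes lay below both BY4741 arrays, with means of -1.33 ± 0.05 and -1.61 ± 0.30 (SD, n = 2). The core subunits COR1 and QCR2 stood apart from these small ones: COR1 ran from -0.81 to 0.09 and QCR2 from -0.93 to 0.55.

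Cytochrome c carries electrons between complexes III and IV, and yeast makes it from a pair of genes, CYC1 for the main form and CYC7 for the form favoured at low oxygen. CYC1 (YJR048W) was at 0.42 and -0.91 in BY4741, -0.37 and -1.28 in bas1, -0.47 and -0.77 in bas2, 0.11 in gcn4 and -1.17 in shm2. CYC7 (YEL039C) was at 0.34 and -0.69 in BY4741, -0.76 and -5.66 in bas1, -0.59 and -1.41 in bas2, -0.03 in gcn4 and -1.83 in shm2. Both were below 0 on every bas1, bas2 and shm2 array, and the BY4741 arrays of each lay on opposite sides of 0.

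CYC7 minus CYC1 was between -0.66 and 0.22 on 7 arrays and -4.39 on bas1 replicate 2. The CYC7 value of that array came from spots at -6.38 and -4.94. The bas1 mean of CYC7, -3.21 ± 3.47 (SD, n = 2), therefore rests on 1 array.

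Complex IV reduces oxygen to water, and the nuclear genes listed here surround a core encoded in mitochondrial DNA. None of the mitochondrially encoded subunit genes was measured here. Of 8 complex IV genes with values on both bas1 arrays, 6 were below the middle gene on both (25.3% of all genes), and in bas2 8 of 9 were (29.1%). On gcn4 all 9 were above the middle gene (50% of all genes), from 0.09 (COX9) to 1.79 (COX6), and 3 of them were at 1 or higher. The median over the 9 genes was 0.85 and -0.45 on the BY4741 arrays.

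Subunit V comes in alternative forms, COX5A made with oxygen and COX5B made at low oxygen. COX5A (YNL052W) was at 0.25 and -0.77 in BY4741, -1.33 and -1.46 in bas1, -1.52 and -0.51 in bas2, 0.24 in gcn4 and -0.65 in shm2. COX5B (YIL111W) was at 0.85 and -0.71 in BY4741, -2.12 and -1.40 in bas1, -2.37 and -1.92 in bas2, 0.65 in gcn4 and -1.31 in shm2. The bas1 and bas2 arrays of COX5B all lay below both BY4741 arrays, which differed from each other by more than the bas1 or bas2 pair did.

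The bas2 mean of COX5B was -2.15 ± 0.32 (SD, n = 2), with a standard error of 0.46 and an adjusted p of 0.722 in limma's fit. COX5B minus COX5A was 0.60 and 0.05 in BY4741, -0.79 and 0.07 in bas1, -0.86 and -1.41 in bas2, 0.41 in gcn4 and -0.65 in shm2. The low-oxygen form was thus the lower of the pair on both bas2 arrays and on shm2, and on only 1 of the bas1 arrays. The spread between the BY4741 arrays in that difference was smaller than the gap to bas2. The difference of isoforms itself was not tested.

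**Figure D2:**
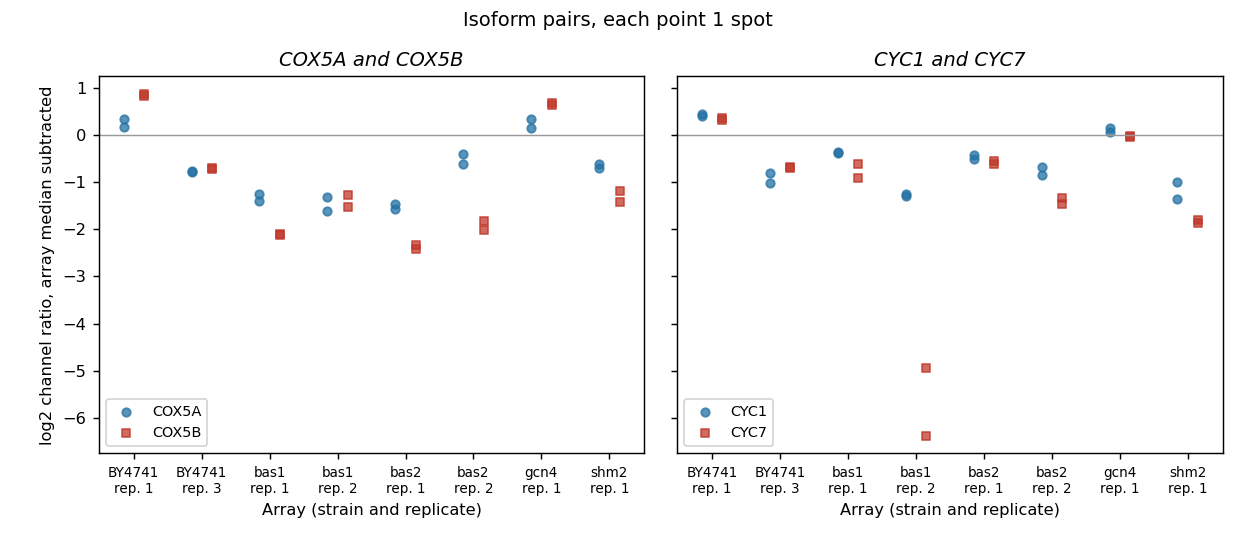
Log2 channel ratio, with the array median subtracted, of each spot of COX5A and COX5B (left) and of CYC1 and CYC7 (right) on 8 arrays. The spots of a gene lie close together on most arrays, and CYC7 on bas1 replicate 2, at -6.38 and -4.94, lies far below every other point.

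COX13 (YGL191W), a small peripheral subunit, was the highest complex IV gene by the mean of the strain means (0.07). It was at 1.41 and -0.33 in BY4741, -1.52 and -1.07 in bas1, -1.01 and -0.10 in bas2, 1.18 in gcn4 and 0.49 in shm2. COX6 (YHR051W), a subunit needed for assembly, was at 1.37 and -0.45 in BY4741, -1.29 and -1.61 in bas1, -0.88 and -0.62 in bas2, 1.79 in gcn4 and -0.81 in shm2. COX8 (YLR395C), a small membrane subunit, was at 1.53 and -0.65 in BY4741, -1.43 and -1.001 in bas1, -1.07 and -0.50 in bas2, 1.30 in gcn4 and 0.07 in shm2.

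In each of these genes the bas1 arrays lay below both BY4741 arrays, and gcn4 lay on the side of BY4741 replicate 1. COX4, COX7, COX9 and COX12, the remaining subunits, had strain means between -1.08 (COX7 in bas2) and 0.94 (COX7 in gcn4). The COX7 value of 0.91 on bas1 replicate 1 averaged spots at -2.26 and 4.08, so it does not stand for either.

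ATP synthase has a catalytic head (ATP1, ATP2 and ATP3, with ATP15 and ATP16), a stalk (ATP4, ATP5, ATP7 and ATP14) and membrane subunits such as ATP17 and ATP20, of which ATP20 helps to join the enzyme into dimers. Of its 9 genes with values on both bas1 arrays, 6 were below the middle gene on both (25.3% of all genes) and 1, ATP2, was above (35.7%). In bas2 10 of 11 were below (29.1%), in BY4741 2 of 11 (32.2%), and on shm2 8 of 11 (50%). On gcn4 8 of 11 were above (50%), 7 of them at 1 or higher (13.2%).

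The alpha and beta subunits parted from most of the other members of the enzyme on several arrays. ATP1 (YBL099W), the alpha subunit, was at -0.64 and -0.47 in BY4741, -0.25 and 1.40 in bas1, -1.10 and -0.13 in bas2, -0.79 in gcn4 and -0.96 in shm2. ATP4 (YPL078C), the main stalk subunit, was at 1.65 and -0.18 in BY4741, -1.05 and 0.05 in bas1, -0.79 and -0.07 in bas2, 1.38 in gcn4 and -0.51 in shm2. On BY4741 replicate 1 and on gcn4 the alpha subunit stood below the middle gene and the stalk subunit above it, and on both bas1 arrays the alpha subunit was the higher of the pair. ATP2 (YJR121W), the beta subunit, was at -1.10 on BY4741 replicate 1 and at -1.67 on gcn4, the sides of ATP1.

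ATP7 (YKL016C), a stalk subunit, was at 1.95 and -0.22 in BY4741, -1.17 and -1.03 in bas1, -0.95 and -0.25 in bas2, 1.51 in gcn4 and -0.34 in shm2. ATP14 (YLR295C), another stalk subunit, was at 0.40 and -0.40 in BY4741, -1.26 and -2.12 in bas1, -0.72 and -0.46 in bas2, 1.90 in gcn4 and -0.06 in shm2. The bas1 arrays of both genes lay below both BY4741 arrays. The bas2 arrays did too, but replicate 2 lay only just below BY4741 replicate 3: -0.25 against -0.22 for ATP7 and -0.46 against -0.40 for ATP14. The spots of those bas2 values differed by more, 0.06 for ATP7 and 0.16 for ATP14. ATP14 had the smallest adjusted p of the members in bas1 (0.268, mean -1.69 with a standard error of 0.36) and in gcn4 (0.423, 1.90 with a standard error of 0.52).

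Among the members, ATP20 held the highest value of BY4741 replicate 1, 2.60, and the lowest of bas1 replicate 1, -2.37. ATP16, the delta subunit, was at -3.06 on BY4741 replicate 1 from 1 spot and at 1.58 on replicate 3, the largest gap between the BY4741 arrays of any member. ATP3, ATP5, ATP15 and ATP17 had strain means between -1.21 (ATP17 in bas1) and 1.08 (ATP3 in gcn4).

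**Figure D3:**
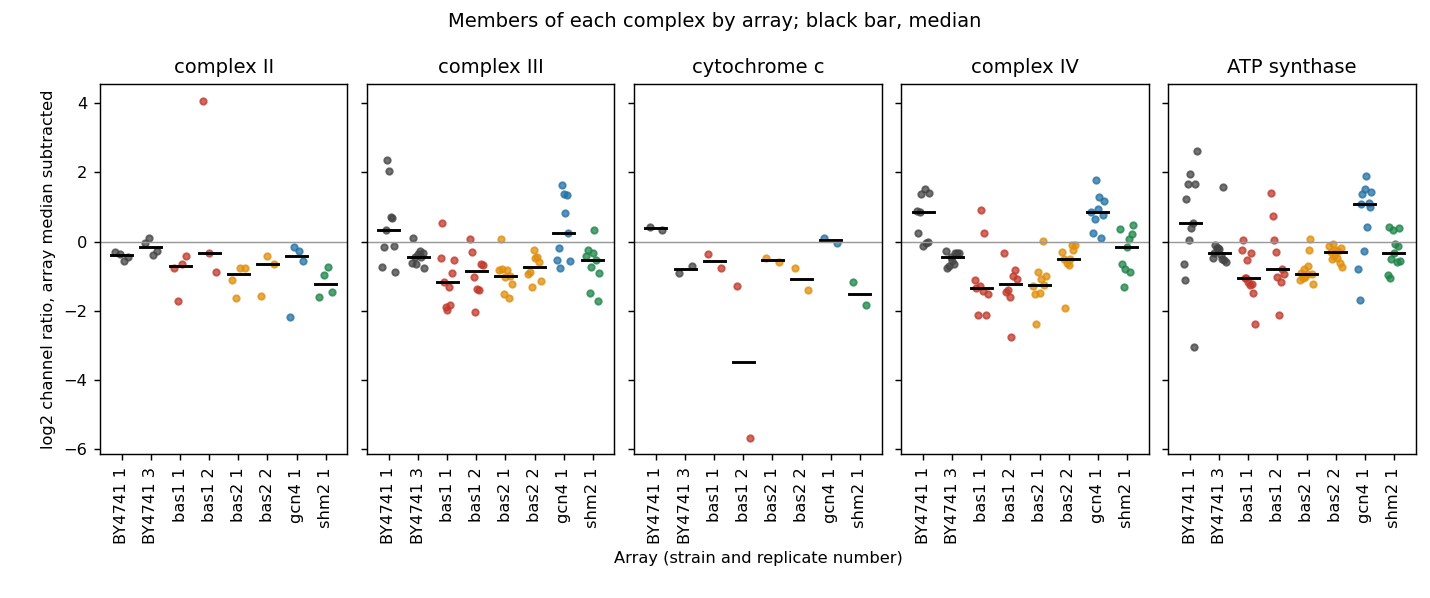
Log2 channel ratio, with the array median subtracted, of each member (points) and the median (black bars) of complexes II, III and IV, cytochrome c and ATP synthase on 8 arrays. Complex II stays near or below 0 on every array apart from SDH1 on bas1 replicate 2, while the medians of complex IV and ATP synthase are 0.85 and 0.55 on BY4741 replicate 1 and 0.87 and 1.08 on gcn4.

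The side on which a member stood went with its length on some arrays. COR1, QCR2, SDH1, ATP1 and ATP2 were the 5 members of 1000 bases or more from start to stop codon, a bound chosen after seeing the data, and the other 30 were shorter. On gcn4 the shorter members had a median of 0.85 and the longer ones of -0.79, and on BY4741 replicate 1 the medians were 0.48 and -0.64. Over all genes under 1000 bases, the median was 0.43 on gcn4 and 0.30 on BY4741 replicate 1. On bas1 the order turned, with -1.20 for shorter and -0.25 for longer members on replicate 1, and -1.03 and 0.73 on replicate 2. On bas2 the classes lay close, at -0.99 and -0.92 on replicate 1 and at -0.50 and -0.29 on replicate 2, the latter with 3 longer members.

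Read against short genes alone, 23 of the 30 shorter members were above the middle gene on gcn4, where 69.3% of all short genes were. In bas1 22 of 25 shorter members were below on both arrays, beside 35.7% of short genes. In bas2 it was 28 of 30, beside 28.5% of short genes. With a curve of ratio against length removed from each array, the gcn4 median over members was 0.19 in place of 0.65, with 18 of 35 members above 0. The same step left 22 of 30 members below 0 on both bas1 arrays and 31 of 33 on both bas2 arrays. It left 15 of 35 in BY4741 and 26 of 35 on shm2. What part length has in the values of gcn4 was not tested beyond this.

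**Figure D4:**
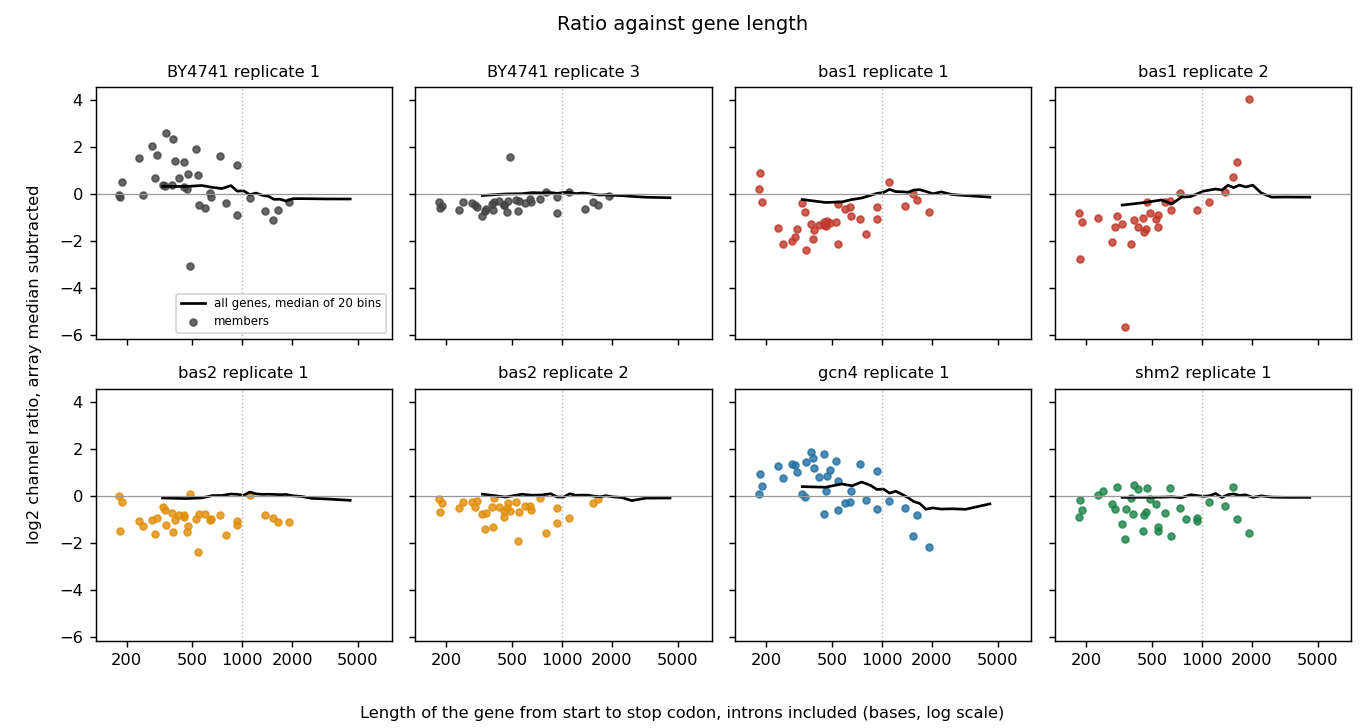
Log2 channel ratio, with the array median subtracted, against gene length in bases (log axis) for the members (points) and, as a line, the median of all genes in 20 bins of length, on 8 arrays; the dotted line marks 1000 bases. On gcn4 the members follow the slope of the line, with 0.85 and -0.79 as medians of shorter and longer members, and on bas2 most of them lie below the line at all lengths.

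Differences between strains were taken gene by gene from the strain means. Against BY4741, the median difference over members was -0.90 in bas1 (30 members), -0.78 in bas2 (33), 0.46 in gcn4 (35) and -0.62 in shm2 (35), and these share the 2 BY4741 arrays. The bas1 difference was -0.32 with the length curve removed and -0.29 with arrays scaled to a common median absolute deviation, and it would be 0.97 with the bas1 arrays turned in sign. Without centring, the differences were -1.67 in bas1, -1.34 in bas2, -0.29 in gcn4 and -1.23 in shm2. The gcn4 difference was 0.18 with the length curve removed and 0.70 at the common deviation, where the shm2 difference was -0.40. With BY4741 replicate 1 turned in sign, the differences would be -0.48 in bas1, -0.455 in bas2, 0.93 in gcn4 and -0.068 in shm2. Against BY4741 replicate 3 alone they were -0.45 in bas1, -0.37 in bas2, 1.02 in gcn4 and -0.11 in shm2. Of the members, 16 of 30 were lower on both bas1 arrays than on both BY4741 arrays, without overlap, where 22.4% of genes were, and 4 were higher (31.4%). In bas2 17 of 33 were lower (20.8%) and none was higher (19.8%).

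On shm2 20 of 35 members were lower than both BY4741 arrays (36.7% of genes) and 4 were higher (36.6%). On gcn4 7 of 35 were lower (33.7%) and 11 were higher (29.4%). QCR8 differed between bas1 and BY4741 by -2.85 with a standard error of 0.86, and its adjusted p in limma's fit was 0.338. COX5B differed between bas2 and BY4741 by -2.21 with a standard error of 0.65, at an adjusted p of 0.846. No gene passed at an adjusted p of 0.05, and at an unadjusted p under 0.05 limma marked 7 of 30 members in bas1 (14.4% of genes), 2 of 33 in bas2 (1.85%), 1 of 35 in gcn4 (3.49%) and 2 of 35 in shm2 (3.79%).

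The titles of the arrays come in 2 forms, one with the word steady and one with ss, and the labels do not call the form a batch. BY4741 replicate 1, bas1 replicate 1, bas2 replicate 1 and gcn4 have the first form. Within it, the median difference from BY4741 over members was -1.49 in bas1, -1.24 in bas2 and -0.13 in gcn4. Within the second form it was -0.53 in bas1, -0.07 in bas2 and -0.11 in shm2. The bas2 difference was thus close to 0 against BY4741 replicate 3, and 21 of 33 members were lower there, beside 51.1% of genes. In bas1 23 of 30 were lower within the second form, beside 50.3% of genes.

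The bas1 and bas2 strains did not part clearly over the members. The median of bas1 minus bas2 was -0.24 over 28 members, and 9 of them were lower on both bas1 arrays than on both bas2 arrays (19.7% of genes) against 2 higher (18.6%). No gene passed limma's test, and at an unadjusted p under 0.05 none of the 28 members was marked, beside 2.3% of genes. The sign of that median turned to 0.12 with the length curve removed and to 0.21 with arrays scaled to a common median absolute deviation. With the bas1 arrays turned in sign it would be 1.74.

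Members shared their array's RNA and hybridisation, so correlations over them are descriptions. The BY4741 arrays correlated at r = -0.49 over 35 members, and BY4741 replicate 1 with gcn4 at r = 0.60, and each would change sign with BY4741 replicate 1 turned. The bas1 pair correlated at r = 0.15 over 30 members and the bas2 pair at r = 0.38 over 33. Replicate 1 of bas1 and of bas2 correlated at r = 0.50, and replicate 2 of each at r = 0.45. The 2 spots of a member differed by a median of 0.03 to 0.19 per array.

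Genes that work with the members were read from lists written for this purpose, and no gene of them passed limma's test in any comparison. Of the assembly factors of complexes III and IV and of ATP synthase, 23 of 28 with values were below the middle gene on both bas2 arrays (29.1% of genes) and 8 of 12 on both bas1 arrays (25.3%). In BY4741 7 of 34 were (32.2%). Mitochondrial ribosomal proteins, which make the subunits encoded in mitochondrial DNA, were below on both arrays for 21 of 34 genes in bas1 and 47 of 65 in bas2, beside the same shares of genes. They were above on gcn4 for 57 of 69 (50% of genes), and above on both BY4741 arrays for 36 of 70 (32.1%), where no member was. This list was drawn by symbol pattern and also holds YMR1, which is not a mitochondrial ribosomal protein.

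Of 4 listed regulators of ATP synthase, 2 had spots under their symbols. STF2, which stabilises the ATP synthase inhibitor, was at 1.35 and -0.24 in BY4741, -1.89 and -2.22 in bas1, -1.67 and -1.03 in bas2, 1.55 in gcn4 and -0.86 in shm2, the sides of the small subunits. INH1, the inhibitor itself, was at -0.68 and -0.95 in BY4741, -0.99 on bas1 replicate 1, -0.77 and -1.23 in bas2, -0.28 in gcn4 and 0.00 in shm2. It was below 0 on both BY4741 arrays, where STF2 was not.

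HAP4, the regulated subunit of the Hap activator, was at -0.77 and -0.17 in BY4741, -1.02 on bas1 replicate 1 with no value on replicate 2, -0.70 and -0.62 in bas2, -0.17 in gcn4 and -1.14 in shm2. It was below the middle gene on the 7 arrays that gave it a value. HAP3, a DNA-binding subunit, was at 1.51 and 1.87 in BY4741 and at -0.81 and -1.83 in bas1. HAP2 and HAP5, the other DNA-binding subunits, ran from -1.88 to 0.40 and from -0.48 to 0.10. HAP1, a heme-responsive activator of CYC1 and CYC7, ran from -0.51 to 1.21, and the hypoxic repressors ROX1 and MOT3 from -0.25 to 0.79 and from -1.01 to 0.97.

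The citric acid cycle, which feeds complex II, did not share the sides of the members in bas1. Of its 9 genes with values, 6 were above the middle gene on both bas1 arrays (35.7% of genes), and the median of the bas1 means was 0.93, against -0.87 for the members. By the mean of the bas1 arrays, ACO1, aconitase, was the highest at 1.29 and 3.12, and MDH1, malate dehydrogenase, the lowest at -0.59 and -0.43. The listed citric acid cycle genes were also longer than most members, from 990 bases (LSC1) to 3045 (KGD1). Length went with the side on bas1: the longer members had medians of -0.25 on replicate 1 and 0.73 on replicate 2. Those of the shorter members were -1.20 and -1.03. Of the heme synthesis genes, which make the cofactor of complexes III and IV, 5 of 6 were above on both bas1 arrays (35.7% of genes) and 5 of 8 on both bas2 arrays (31.4%). With the bas1 arrays turned in sign, the bas1 sides of every list would change over. The difference between lists was not tested, and neither was the part that gene length has in it.

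**Figure D5:**
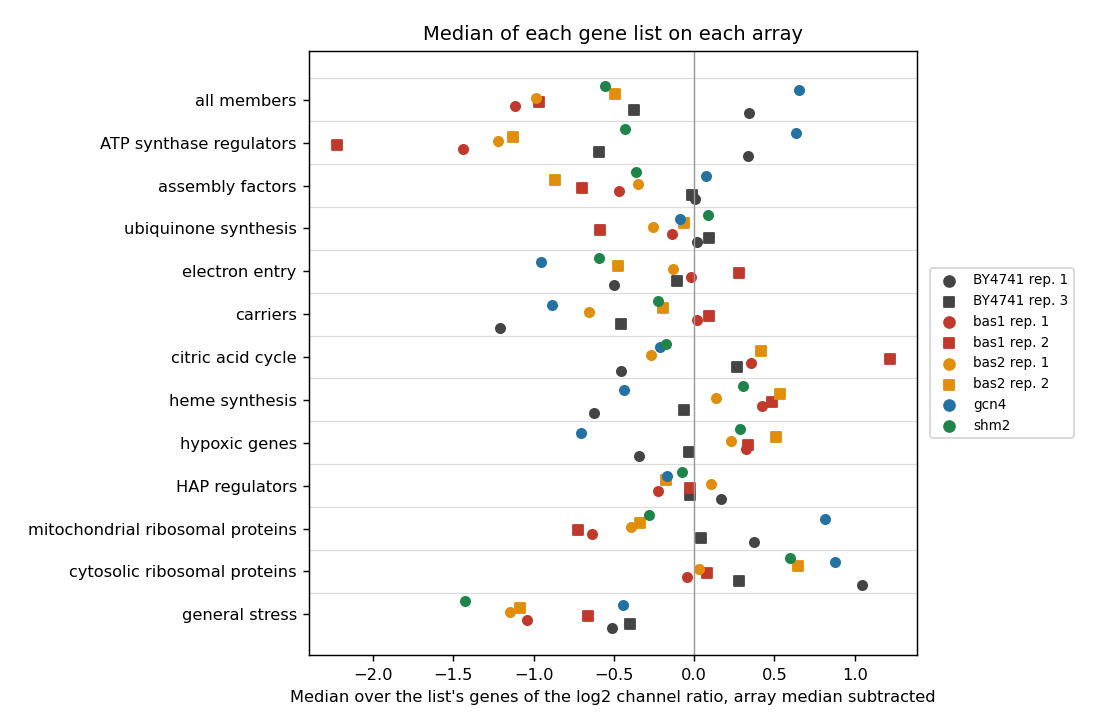
Median log2 channel ratio, with the array median subtracted, of the members and of related gene lists (lines of the plot) on each of 8 arrays (circles, first title form; squares, second, except that gcn4 and shm2 are both circles). The members, the assembly factors and the mitochondrial ribosomal proteins lie left of 0 on the bas1, bas2 and shm2 arrays, whereas the citric acid cycle reaches 1.22 on bas1 replicate 2.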

How the data were processed

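Each of the 8 samples was a two-channel spotted array. Per the labels, a GenePix 4000B scanner and GenePix Pro 3.0 gave the spots. The deposited values were log2 channel ratios, and 99.8% of the linear ratios lay on steps of 0.001 (within 0.01 of a step). The sources used here do not give dyes, background handling, spot filters, normalization or genome build. Signal over background is unknown, since separate channel signals were not used, and precision is limited by the few arrays.

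Of 12800 spots, 11138 had 1 gene symbol and 1662 had none, and 11128 were matched by identifier to the RefSeq gene table of assembly R64, which served for names and lengths only. Spots of a gene were averaged (5539 genes), and each array was centred on its median over genes, which ran from -0.78 to 0.65 before centring. There were 0 columns of other samples. Groups came from titles and descriptions.

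Strain means against 0 and differences between strains, 10 comparisons in all, were tested two-sided with lmFit and eBayes of limma 3.58.1 (R 4.3.3) in 1 fit of 5 strain means to the 8 arrays. A gene was tested where every array of the strains compared gave a value. Adjusted p is Benjamini-Hochberg over those genes, at a threshold of 0.05. Residual degrees of freedom were at most 3, beside 2.30 from the prior, whose SD was 0.545. The test was tried on simulated data first. Summaries used Python 3.11.15 and pandas 2.3.3, and the length curve statsmodels 0.14.6 (lowess, fraction 0.3).

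The members and lists were chosen with earlier results of these data known. Values on every array are given for 19 genes: the isoform pairs, the members with the lowest and highest mean of strain means in each of complexes II, III and IV and ATP synthase, and members at 1 or beyond in size on both arrays of a strain with 1 sign. Values of further members and of non-members illustrate ranges, extremes and lists, and some were chosen after their values were seen. Alternatives were no centring, a common median absolute deviation, a length curve, spot filters, medians of spots, a replicate block, fewer arrays and turned signs. Background correction and a filter on dim spots could not be varied.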

Additional observations from a re-analysis of the deposited data

Results flagged for a closer look

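Some members, and the medians of some complexes, stood on the gcn4 array on the side opposite to every bas1 and bas2 array with a value, and these differences were not tested. Complex II was not among them, and 12 of 35 members were below the middle gene on gcn4. The side of gcn4 was not its own: every gene named in this section was also above 0 on BY4741 replicate 1. Each was below 0 on BY4741 replicate 3. Against BY4741 replicate 1, which has the same title form, the median difference of gcn4 over members was -0.13. There 22 of 35 members were lower on gcn4, beside 54.3% of genes. The gcn4 median was 0.65 over all members, 0.23 for complex III, 0.039 for cytochrome c, 0.87 for complex IV and 1.08 for ATP synthase, while all 4 bas1 and bas2 arrays had medians below 0 for each. Among complex III genes on gcn4, QCR8 was at 1.39, QCR9 at 0.82 and QCR10 at 1.35, against values below 0 on both arrays of bas1 and of bas2. QCR7 was at 1.65 on gcn4 and ATP4 at 1.38, against bas2 alone.

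CYC1, for cytochrome c, was at 0.11 on gcn4. In complex IV, COX5A was at 0.24, COX5B at 0.65, COX6 at 1.79, COX8 at 1.30 and COX13 at 1.18. In the stalk of ATP synthase, ATP7 was at 1.51 and ATP14 at 1.90.

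On the shm2 array, QCR9 at 0.32, COX8 at 0.067 and COX13 at 0.49 were also opposite to the bas1 and bas2 arrays. None of these differences was tested. Of the short genes as a whole, 69.3% stood above the middle gene on gcn4, as given with the lengths. With the bas1 arrays turned in sign, only the contrast with bas2 would keep its opposite sides.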

How the results depend on the processing

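Counts of genes past the limma threshold were 0 in every comparison and stayed at 0 under 152 of 166 alternatives. The exceptions were 2 genes in BY4741 with only its own arrays fitted, and 2 in BY4741, 1 in bas1, 1 in bas1 minus BY4741, 122 in gcn4 and 21 in gcn4 minus BY4741 without both bas1 replicate 2 and bas2 replicate 2. No centring gave 1 gene in bas1 and 13 in gcn4, and turning the sign of both bas1 arrays gave 2 in bas1 minus bas2. Leaving out 1 array at a time gave 0 to 641 genes in bas1, 0 to 493 in bas1 minus BY4741, 0 to 158 in bas1 minus bas2 and 0 to 4 in gcn4. The highest counts came without bas1 replicate 1, which leaves the wide bas1 replicate 2 alone, and only there did members pass: ATP14, COX7, CYC7 and SDH1 in bas1, CYC7 and SDH1 in bas1 minus BY4741 and CYC7 in bas1 minus bas2. For the other comparisons that range was 0 to 0.

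Of 160 recomputed member medians, 10 turned in sign. A median is called moved where it shifted by over 0.359, the SD between replicate arrays. The BY4741 median was 0.43 without centring and -0.49 with replicate 1 turned in sign, and from -0.37 to 0.34 leaving out 1 array at a time. The bas1 median was 0.87 with its arrays turned, and from -1.12 to -0.87 leaving out 1 array. The bas2 median ran from -0.98 to -0.50 and the gcn4 median was 0.19 with the length curve removed. The difference of bas1 from BY4741 was -0.32 with the length curve removed, -0.29 at a common median absolute deviation, -1.67 without centring, -0.48 with BY4741 replicate 1 turned and 0.97 with bas1 turned, and from -1.36 to -0.45 leaving out 1 array. The difference of bas1 from bas2 was 0.12, 0.21 and 1.74 under the length curve, the common deviation and bas1 turned, and from -0.40 to 0.04 leaving out 1 array. Without centring, the differences from BY4741 were -1.34 in bas2, -0.29 in gcn4 and -1.23 in shm2. With BY4741 replicate 1 turned they were 0.93 in gcn4 and -0.068 in shm2. Leaving out 1 array they ran from -1.25 to -0.37 in bas2, from -0.13 to 1.02 in gcn4 and from -1.03 to -0.11 in shm2. Members below the middle gene on both BY4741 arrays numbered 3 without centring, 21 with replicate 1 turned, and 11 to 32 leaving out 1 array, with 32 without replicate 1. In bas1 they numbered 1 with its arrays turned and 22 to 31 leaving out 1 array, and in bas2 30 to 33. The cause of these shifts was not tested. Turning BY4741 replicate 1, and all alternatives for counts of members and for median differences, were chosen after seeing the data.

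As a replicate block, the title form changed no call (0 genes in each comparison), with member medians of 0.39 in gcn4 and -0.51 in shm2. The gap between the 2 arrays of a strain correlated at r = 0.54 between bas1 and bas2, which both have replicates 1 and 2. It correlated at 0.06 between BY4741 and bas1 and at -0.03 between BY4741 and bas2, where replicate 3 of BY4741 was set against replicate 2. Only a number is shared, and no label says that it pairs the samples.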

Other observations

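The membrane carriers, a list that also holds the outer membrane porin POR1, stood low in BY4741 and gcn4. Of these 6 genes, 5 were below the middle gene on both BY4741 arrays (32.2% of genes) and all 6 on gcn4 (50%), with medians of -0.93 and -0.89, whereas the 4 with values on both bas1 arrays had a median of 0.02. In bas2 4 of the 6 carriers were below on both arrays (29.1% of genes), with a median of -0.32. MIR1, the phosphate carrier, was at -1.44 and -0.72 in BY4741 and at -1.13 on gcn4. PIC2, of the same list, was at 0.42 and 0.04 in BY4741 and at -0.08 on gcn4. Of 6 genes for dehydrogenases that pass electrons to ubiquinone or to cytochrome c outside complex II, 5 were below on gcn4 (50% of genes) and 5 on shm2, and GUT2, the mitochondrial glycerol-3-phosphate dehydrogenase, was below 0 on all 6 arrays that gave it a value, from -1.79 to -0.60.

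Genes known to be raised at low oxygen, apart from COX5B and CYC7, were above the middle gene on both arrays for 4 of 5 in bas1 (35.7% of genes) and 5 of 7 in bas2 (31.4%), and for all 8 on shm2 (50%). OLE1, the fatty acid desaturase, was the highest of them on shm2 at 1.93, and it was at 0.99 and 1.34 in bas2, where COX5B was at -2.37 and -1.92. HEM13 is also in the heme synthesis list and AAC3 is also among the carriers, so the counts of these lists overlap. Ubiquinone synthesis genes lay near the middle, with strain medians from -0.27 in bas1 to 0.09 in shm2.

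General stress genes were below the middle gene on both arrays for 21 of 28 in BY4741 (32.2% of genes), 11 of 18 in bas1 (25.3%) and 21 of 23 in bas2 (29.1%). On shm2 25 of 28 were below and on gcn4 21 of 28 (50% for each). Cytosolic ribosomal protein genes were above on both arrays for 102 of 133 in BY4741 (32.1%) and 72 of 133 in bas2 (31.4%), and their medians on gcn4 and shm2 were 0.88 and 0.60. In bas1 44 of 130 were above on both arrays, near the 35.7% of all genes, and 43 were below on both (25.3%). No gene of these lists passed limma's test at an adjusted p of 0.05 in any comparison.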
